A study of Mus musculus with 16 samples.

Results

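The genes of fatty acid uptake and mitochondrial beta-oxidation were examined as a set of 34 mouse genes. They were chosen by function, with earlier results of these data known, and matched to the expression table by the symbol of each Ensembl identifier. Shares set beside all genes are therefore descriptive. All 34 were among the 12021 genes listed, and no filter on low values removed any of them. They comprised 4 genes of uptake and binding, 6 of activation and the carnitine shuttle, 7 acyl-CoA dehydrogenases and 5 genes of the later steps of each cycle. The other groups were 3 genes for unsaturated fatty acids, 3 of electron transfer, 4 of thioesterases and uncoupling, and 2 nuclear receptors.

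RNA was sequenced from the tibialis anterior, a shin muscle made mostly of fast fibres, in control mice and in mice with cachexia, the loss of muscle and fat seen with many cancers. The labels name 4 models, each with 2 control and 2 cachectic libraries: KPP (strain C57BL/6J), LLC (C57BL/6J), C26 (CD2F1) and KPC (labelled as mixed). C26 and LLC are the names of widely used transplantable mouse tumours, and the labels do not spell out KPP or KPC, nor give the tumour site, age or sex. Every control group carried the strain label of its own model, and the labels list no treatment for any group. KPP and LLC share a strain. For C26 and for KPC, strain and model cannot be told apart. The C26, KPC and LLC cachectic samples are numbered as mice, whereas the labels of the KPP samples and of all controls do not state separate animals, so the p-values measure the spread between these samples, which may be technical.

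Long-chain fatty acids reach a muscle fibre after lipoprotein lipase frees them from circulating triglyceride, and CD36, transport proteins and a cytosolic binding protein carry them inward. They are activated to acyl-CoA, pass the mitochondrial membranes as acylcarnitines, and are then shortened in repeated cycles of dehydrogenation, hydration, a further dehydrogenation and thiolysis. Electrons leave through the electron transfer flavoprotein to the respiratory chain. PPAR-alpha and PPAR-delta are nuclear receptors that bind fatty acids and switch on many of these genes, and slow, oxidative fibres depend on the pathway more than fast fibres do.

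Each library held 28584279 to 46972882 reads over the listed genes, and all 15 fast fibre and general muscle markers were measured. Below, a level is the log2 of reads per 1000000 reads (RPM). A change is cachectic minus control on that log2 scale, given ± SE (n = 2 libraries per group). The SE comes from a moderated spread per gene shared over all 16 libraries, so a gene has the same SE in each of the 4 models. It does not show how far apart the 2 libraries of a given group lie. The limma p-values were adjusted over all 12021 genes by the Benjamini-Hochberg method. A gene is said to have risen or fallen where its adjusted p was under 0.05. Where counts of called members are given with libraries left out or under another scaling, the share of all genes called is not given. Such counts are not read as a result about the members. Replicates of KPC and LLC cachectic muscle stood furthest apart, with an SD over all genes of the difference between them of 0.534 and 0.561. This SD was 0.346 to 0.359 in the other cachectic groups and 0.239 to 0.291 in controls. KPC cachectic 2 held 12.3% of its reads in mitochondrially encoded genes, above the 11.1% and 11.4% of the KPC controls, while the other cachectic libraries held 5.73% to 8.91%. In RNA from whole muscle, fewer cells of a type and less RNA per cell cannot be told apart.

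The promoters of 4 members are shown. Acot1 and Acot2 had the largest rises in C26, Cd36 rose in C26 and LLC, and Hadhb shares a start region with Hadha. The printed promoters are RefSeq windows on GRCm38.p6 of 300 bases, from 250 before to 50 after an annotated start. Of the 34 members, 28 had at least 1 window, with 31 member windows in all. Acot1 (chr12:84009252-84009551, plus strand) and Acot2 (chr12:83987611-83987910, plus strand) are neighbours with near-identical coding parts, and capitals mark their 50 transcribed bases.
Acot1: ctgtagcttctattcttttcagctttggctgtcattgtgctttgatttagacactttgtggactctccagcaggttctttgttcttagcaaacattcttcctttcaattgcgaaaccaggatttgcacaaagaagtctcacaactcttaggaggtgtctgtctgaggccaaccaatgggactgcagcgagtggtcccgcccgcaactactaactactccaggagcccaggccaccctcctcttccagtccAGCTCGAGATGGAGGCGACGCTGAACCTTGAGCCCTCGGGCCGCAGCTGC
Acot2: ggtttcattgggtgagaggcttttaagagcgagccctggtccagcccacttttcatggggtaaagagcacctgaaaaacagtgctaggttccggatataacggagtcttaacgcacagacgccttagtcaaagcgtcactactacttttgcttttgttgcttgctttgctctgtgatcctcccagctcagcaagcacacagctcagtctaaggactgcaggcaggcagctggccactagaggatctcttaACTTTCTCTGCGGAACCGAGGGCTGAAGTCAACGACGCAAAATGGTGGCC
In contrast to their transcripts, the Acot1 and Acot2 windows matched at 50.3% of 354 aligned columns (178 bases), and the longest run they shared was 9 bases. The Hadhb window (chr5:30155003-30155302, plus strand) runs head to head with that of Hadha: the first transcribed bases lie 272 bases apart and 228 bases of the windows are common. Capitals again mark the transcribed bases.
Hadhb: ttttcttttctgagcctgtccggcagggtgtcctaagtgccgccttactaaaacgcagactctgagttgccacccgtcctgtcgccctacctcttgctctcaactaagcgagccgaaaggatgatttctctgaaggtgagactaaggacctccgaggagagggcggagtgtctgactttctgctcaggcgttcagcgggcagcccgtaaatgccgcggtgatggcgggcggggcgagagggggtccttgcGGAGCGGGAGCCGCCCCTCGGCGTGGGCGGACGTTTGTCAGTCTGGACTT
The Cd36 window (chr5:17835847-17836146, minus strand) lies inside the annotated gene (chr5:17781690-17888801), downstream of its outermost annotated start. Its capitals mark TGACCT, which is AGGTCA on the opposite strand, the core letters read by many nuclear receptors.
Cd36: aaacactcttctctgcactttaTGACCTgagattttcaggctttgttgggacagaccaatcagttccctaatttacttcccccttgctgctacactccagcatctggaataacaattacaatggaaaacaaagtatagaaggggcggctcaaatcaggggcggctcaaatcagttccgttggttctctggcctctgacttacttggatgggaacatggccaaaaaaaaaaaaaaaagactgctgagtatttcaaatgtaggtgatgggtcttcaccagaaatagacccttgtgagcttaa
Searched on both strands, AGGTCA was found in windows of 5 of 28 members (Acadm, Acadvl, Cd36, Echs1 and Ucp3) and in 16.3% of all 32851 windows. A direct repeat of AGGNCA with 1 base between the copies, of which AGGTCA can be a part, was in 0 member windows and 0.381% of all. The same search gave 0 member windows for TCAAGGTCA, an extended core that also contains AGGTCA, for GTAAACA, the forkhead core, and for the glucocorticoid receptor palindrome of AGNACA and TGTNCT with 3 bases between. Of all windows, 0.423%, 3.65% and 0.0639% held these letters.

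**Figure D1:**
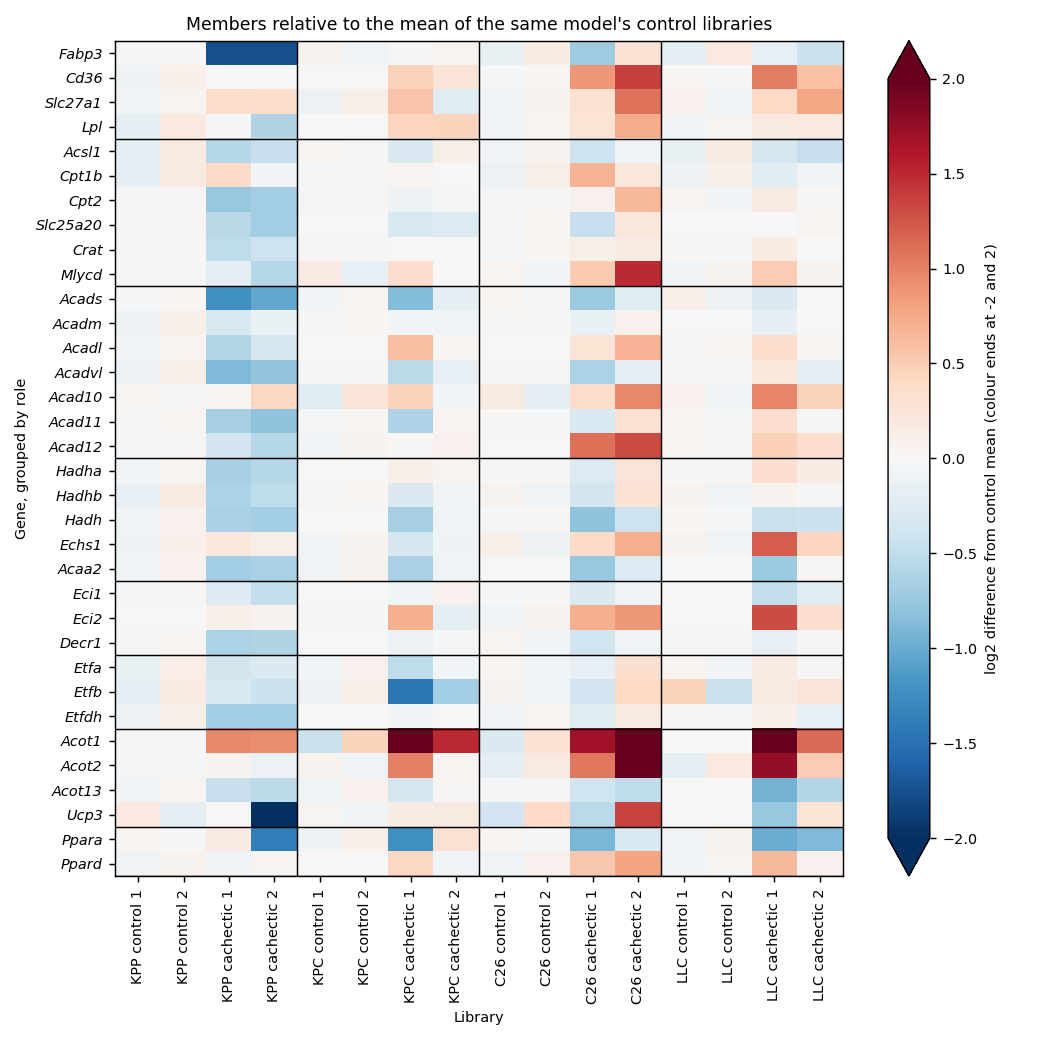
Difference of each member's log2 level from the mean of its own model's control libraries, for the 34 members (rows, grouped by role) in the 16 libraries (columns), with colours ending at -2 and 2. Most members were below controls in both KPP cachectic libraries, the 2 C26 cachectic libraries differ for many members, and Acot1 was above both controls in all 8 cachectic libraries.

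In KPP muscle the members leaned downward: 6 of 34 fell (17.6%) and 0 rose, where 1.07% of all genes fell and 0.707% rose. Those that fell were Fabp3, Cpt2, Acads, Acadvl, Decr1 and Etfdh, which lie at different points from fatty acid binding to electron transfer. Both cachectic libraries lay below both controls for 22 members, or above them for 5, where 29.7% of all genes lay below and 28.9% above. The median change was -0.47 over the members and 0.00 over all genes. At an unadjusted p under 0.05 the members that passed numbered 18, and all 18 were lower, where 11.3% of all genes were lower at that threshold. The members together took 0.387% and 0.434% of the reads in the KPP controls and 0.299% and 0.286% in the cachectic libraries. Mitochondrially encoded genes took 9.10% to 10.5% in KPP controls and 5.73% to 5.89% in cachectic muscle, and 3 of these 15 genes fell. This share was lower in cachectic muscle of C26 and LLC as well, as given below. Of 8 slow fibre markers measured, 3 rose, and their summed level went from 157 to 166 RPM in controls to 248 to 632. Fibroblast markers went from 786 to 878 down to 319 to 413, and 4 of 9 fell. The part of these shifts in the members' values was not tested. The number of members called was 0 when either KPP control or KPP cachectic 1 was left out, and 1 (Fabp3) when KPP cachectic 2 was. It was 1 without either control of KPC, C26 or LLC, and 13 without either cachectic library of KPC or LLC. Each of the 5 calls other than Fabp3 was lost in the same 10 fits, those without a KPP library or a control of another model, with adjusted p of at most 0.242.

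In KPC muscle, 0 members were called by limma, as were 0% of all genes. At an unadjusted p under 0.05 there were 4 members, 2 lower and 2 higher, beside 8.61% of all genes, and the smallest adjusted p was 0.547. The lowest change was that of Etfb, the beta subunit of the electron transfer flavoprotein, at -1.07 ± 0.32 (adjusted p = 0.547), and the highest that of Acot1 at 2.06 ± 0.70 (adjusted p = 0.547). The median change was -0.02, beside 0.01 over all genes. Both cachectic libraries lay below both controls for 11 members and above them for 6, where 22.0% and 15.8% of all genes did so. Without KPC cachectic 2, the library whose mitochondrially encoded share resembled controls, the changes rested on KPC cachectic 1 alone. They were then -0.86 for Acads, -0.66 for Hadh and -1.45 for Etfb. In the other direction they were 2.62 for Acot1, 1.00 for Acot2, 0.71 for Eci2 and 0.60 for Acadl. In KPC cachectic 1, 18 members lay below both controls and 13 above, where 35.2% and 51.1% of all genes did so.

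In C26 muscle 6 members rose (17.6%) and 2 fell (5.88%), where 23.2% of all genes rose and 5.12% fell, so the members' shares lay near the background. Cd36, Mlycd, Acad12, Acot1, Acot2 and Ppard rose, and Hadh and Acot13 fell. The median change was 0.04 for the members and 0.28 for all genes, and changes below should be read against that shift. With each library centred on its median, 4 members rose and 4 fell: Mlycd and Ppard no longer passed (nor with quantile normalization), and Acadvl (-0.65) and Decr1 (-0.48) did. Both cachectic libraries lay above both controls for 15 members and below them for 8, where 59.6% and 16.9% of all genes did so. The 2 cachectic libraries were unlike each other. C26 cachectic 2 stood above C26 cachectic 1 for 32 of 34 members, by a median of 0.49, where the median over all genes was -0.03. Against the mean of the controls, the members' median was -0.19 in C26 cachectic 1 and 0.29 in C26 cachectic 2. Summed endothelial markers went from 597 to 612 RPM in controls to 880 to 892, and 8 of 13 rose. For macrophage markers the sums were 95.3 to 115 and then 255 to 264, and 8 of 9 rose. Adipocyte markers summed to 122 to 180 and then 213 to 245, and 2 of 7 measured rose. Mitochondrially encoded reads went from 12.4% to 12.8% of the total in controls to 7.21% to 8.04%, and 12 of 15 such genes fell. The fast fibre and general muscle markers, taken as 1 list, summed to 134590 to 135854 RPM and then 115863 to 129736. Of these 15, 4 fell and 1 rose. The part of these shifts in the members' values was not tested. The count of 8 called members was 2 (Cd36 and Acad12) when either C26 control was left out, 7 when C26 cachectic 1 was, and 3 when C26 cachectic 2 was. It was 12 without either KPC cachectic library and 13 without either LLC cachectic library.

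In LLC muscle 2 members rose (5.88%), Cd36 and Echs1, and 1 fell (2.94%), Acot13, where 3.42% of all genes rose and 3.66% fell. The median change was 0.09 for the members and 0.10 for all genes. Both cachectic libraries lay above both controls for 14 members and below for 5, where 33.8% and 23.6% of all genes did so. Summed endothelial markers were 604 to 636 RPM in controls and 686 to 751 in cachectic muscle, and 3 of 13 rose. Adipocyte markers summed to 113 to 118 and then 163 to 209, and 1 of 7 rose. Fibroblast markers went from 1225 to 1371 in controls to 370 to 572, and 4 of 9 fell, and mitochondrially encoded reads from 12.8% to 13.0% of the total to 7.97% to 8.91%, and 5 of 15 such genes fell. The part of these shifts in the members' values was not tested. The count of called members was 0 without LLC control 1, 0 without LLC control 2, 0 without LLC cachectic 1 and 11 without LLC cachectic 2. It was 6 without either KPC cachectic library. A setting chosen after the data were seen left out the pair KPC cachectic 2 and LLC cachectic 1. Its counts are given with the other settings below.

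Over the mean of the 4 models, 11 members fell (32.4%) and 9 rose (26.5%), where 13.8% of all genes fell and 27.3% rose. The change was negative in all 4 models for 10 members (29.4%, beside 14.8% of all genes): Acsl1, Acads, Acadm, Hadh, Acaa2, Eci1, Decr1, Etfdh, Acot13 and Ppara. It was positive in all 4 for 6 members (17.6%, beside 28.5% of all genes): Cd36, Slc27a1, Acad10, Eci2, Acot1 and Ppard. The median was -0.11 for the members and 0.10 for all genes. With each library centred on its median the split was 13 fallen and 7 risen, with quantile normalization 13 and 6, and with library totals that leave out mitochondrially encoded reads 12 and 7. Echs1 and Ppard no longer passed under any of these 3 scalings, nor Slc27a1 with quantile normalization, and Etfdh fell under all 3. The F test of differences between the 4 models called 1 member, Acad12, and 0.116% of all genes. At an unadjusted p under 0.05 it held 14 members and 15.9% of all genes.

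**Figure D2:**
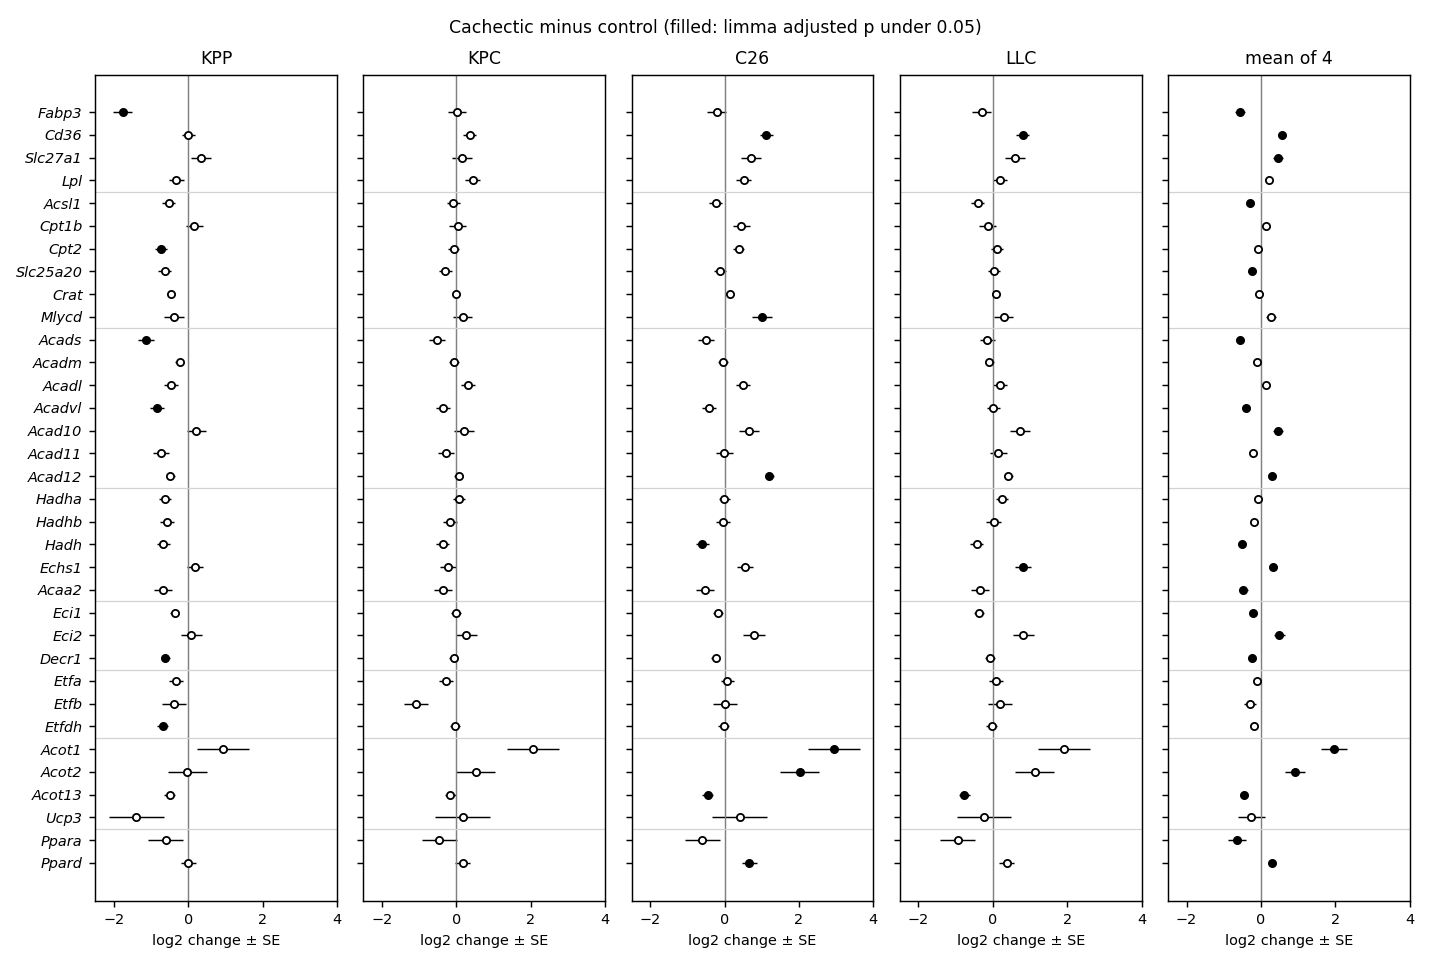
Change of each of the 34 members, cachectic minus control in log2 units ± SE, in the 4 models and their mean (n = 2 libraries per group), with filled points where the limma adjusted p was under 0.05. KPP holds filled points on the left of 0 only, and C26 holds 6 on the right and 2 on the left. The SE of a member rests on all 16 libraries and is the same in each of the 4 models.

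Among the genes of uptake and binding, Fabp3 fell in KPP, Cd36 rose in C26 and LLC, and Slc27a1 rose over the mean of the models. Fabp3 (chr4:130308595-130315463, plus strand) encodes the heart and muscle fatty acid binding protein, which carries fatty acids through the cytosol. Its level was 7.75 and 7.79 in the KPP controls and 6.00 and 6.00 in the KPP cachectic libraries. Both cachectic values lay far below every other library of the study, and Fabp3 fell by 1.77 ± 0.25 in KPP (3.40-fold, adjusted p = 0.0105). The levels were 7.69 and 7.54 in KPC controls and 7.60 and 7.67 in KPC cachectic muscle. In C26 they were 7.76 and 8.06 in controls, then 7.21 and 8.20, and in LLC 7.34 and 7.72, then 7.36 and 7.10. The groups overlapped in KPC, C26 and LLC, with changes of 0.01, -0.21 and -0.30 (adjusted p = 0.993, 0.514 and 0.422). The KPP change differed from that in C26 by -1.55 ± 0.35 (adjusted p = 0.0700), from KPC by -1.78 ± 0.35 (0.277) and from LLC by -1.46 ± 0.35 (0.219), so a difference between models did not pass. The KPP fall was called under all 11 alternatives other than leaving out 1 library, and lost when KPP control 1 (adjusted p = 0.0809), its fellow control 2 (0.0762) or cachectic 1 (0.0653) was left out. Among those 11, the looser threshold of adjusted p under 0.10 could not lose a call. Over the mean of the models Fabp3 fell by 0.57 ± 0.12 (adjusted p = 0.0047). A processed copy, Fabp3-ps1, matches the transcript at 99.3% over 402 bases and was counted separately. It stood at 3.55 and 3.57 in KPP controls and 1.79 and 2.01 in cachectic muscle, a fall of 1.66 ± 0.32 (adjusted p = 0.0364). Reads that fit both genes cannot be assigned from these counts.

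Cd36 (chr5:17781690-17888801, minus strand) encodes the membrane protein through which much long-chain fatty acid enters muscle, and is also made by endothelium, adipocytes and macrophages. Its level was 7.94 and 8.03 in C26 controls and 8.85 and 9.35 in C26 cachectic muscle, and 7.82 and 7.76 in LLC controls and 8.81 and 8.37 in LLC cachectic muscle. In KPC it was 8.13 and 8.15, then 8.60 and 8.39, and in KPP 8.01 and 8.23, then 8.13 and 8.11. The groups were apart in C26, LLC and KPC, and in KPP the cachectic values fell between the controls. Cd36 rose by 1.12 ± 0.18 in C26 (2.17-fold, adjusted p = 0.00383) and by 0.80 ± 0.18 in LLC (1.74-fold, adjusted p = 0.0276). The changes of 0.36 in KPC and 0.00 in KPP did not pass (adjusted p = 0.577 and 0.994). The difference between KPP and C26 was -1.11 ± 0.25 (adjusted p = 0.0696). In C26 the rise was called with any 1 library left out, while in LLC it was lost without LLC control 1 (adjusted p = 0.122), LLC control 2 (0.193) or LLC cachectic 1 (0.154). The endothelial, adipocyte and macrophage marker sums given above were higher beside Cd36 in C26, and their part in its change was not tested.

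Slc27a1 encodes the fatty acid transport protein FATP1, and Lpl the lipoprotein lipase that works at the capillary wall. Slc27a1 passed over the mean, at 0.45 ± 0.13 (adjusted p = 0.0179), with its change between 0.16 in KPC and 0.70 in C26. Its levels were 5.95 and 6.07, then 6.37 and 6.36 in KPP, 5.49 and 5.73, then 6.18 and 5.37 in KPC, 5.58 and 5.73, then 5.97 and 6.75 in C26, and 5.78 and 5.60, then 6.09 and 6.47 in LLC. The 2 groups overlapped in KPC and were apart in the other models. Lpl passed in 0 of the 4 models and not over the mean (0.21 ± 0.10, adjusted p = 0.108).

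**Figure D3:**
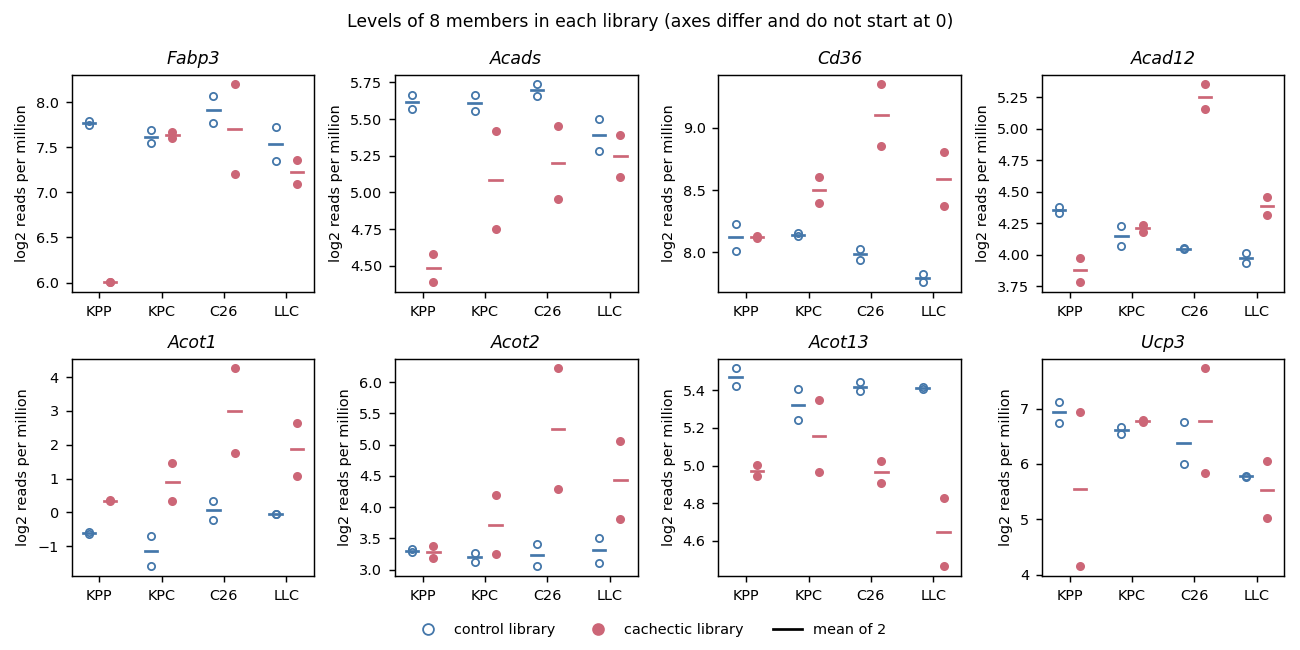
Level of 8 members in log2 RPM in each library, by model, with open points for control and filled points for cachectic libraries and a bar at the mean of 2; axes differ and do not start at 0. Fabp3 stands at 6.00 in both KPP cachectic libraries, and Acot1 and Acot2 are highest in C26 cachectic 2.

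In the activation and carnitine group, 1 of 6 members fell in KPP (16.7%, beside 1.07% of all genes). In C26, 1 rose (16.7%, beside 23.2% of all genes). Cpt2, the carnitine palmitoyltransferase of the inner mitochondrial membrane, had levels of 5.49 and 5.52 in KPP controls and 4.75 and 4.82 in KPP cachectic muscle. These did not overlap, and Cpt2 fell by 0.73 ± 0.16 (1.65-fold, adjusted p = 0.0458). Its levels elsewhere were 5.54 and 5.58, then 5.45 and 5.52 in KPC, 5.66 and 5.72, then 5.78 and 6.35 in C26, and 5.50 and 5.39, then 5.63 and 5.48 in LLC, with changes of -0.08, 0.38 and 0.11 that did not pass. Mlycd encodes malonyl-CoA decarboxylase, which removes the inhibitor of the outer-membrane carnitine palmitoyltransferase (Cpt1b in muscle). Its level was 5.42 and 5.32 in C26 controls and 5.89 and 6.86 in C26 cachectic muscle, apart but with a wide gap between the cachectic libraries. Mlycd rose by 1.01 ± 0.27 in C26 (2.01-fold, adjusted p = 0.0195). The call was lost without C26 control 1 (adjusted p = 0.0912), C26 control 2 (0.1) or C26 cachectic 2 (0.146), and without the last the change was 0.53. In the other models its change ran from -0.38 in KPP to 0.29 in LLC, with levels of 5.69 and 5.63, then 5.47 and 5.08 in KPP, 5.75 and 5.43, then 5.93 and 5.58 in KPC, and 5.43 and 5.57, then 6.01 and 5.58 in LLC.

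Acsl1, the main long-chain acyl-CoA synthetase of muscle, and Slc25a20, the carnitine-acylcarnitine carrier, fell over the mean of the models. Acsl1 fell by 0.31 ± 0.09 (adjusted p = 0.0153), with changes from -0.52 in KPP to -0.08 in KPC. Its levels were 8.25 and 8.60, then 7.85 and 7.96 in KPP, 8.21 and 8.13, then 7.88 and 8.28 in KPC, 8.33 and 8.46, then 7.99 and 8.33 in C26, and 8.29 and 8.58, then 8.09 and 7.97 in LLC. The groups were apart in KPP and LLC and overlapped in KPC and C26. Slc25a20 fell by 0.26 ± 0.08 (adjusted p = 0.0296), with levels of 5.74 and 5.80, then 5.22 and 5.07 in KPP, 5.88 and 5.88, then 5.55 and 5.61 in KPC, 5.55 and 5.64, then 5.14 and 5.80 in C26, and 5.61 and 5.61, then 5.62 and 5.66 in LLC. Cachectic values were lower in KPP and KPC, and the Slc25a20 call was lost in 10 of the 16 fits that leave out 1 library, where the adjusted p was at most 0.0658. Crat, the mitochondrial carnitine acetyltransferase, was at -0.46 ± 0.11 in KPP (adjusted p = 0.0521). Cpt1b encodes the muscle carnitine palmitoyltransferase of the outer membrane, and its level was 0.63 to 1.63. In the annotation 81.4% of its exon bases (2744 bases) also belong to Gm44502 on the same strand, and how reads there were counted is not known.

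The acyl-CoA dehydrogenases carry out the opening step of each cycle and differ in the chain length they prefer. Acads (short chains; chr5:115110299-115119346, minus strand) had levels of 5.57 and 5.66 in KPP controls and 4.39 and 4.58 in KPP cachectic muscle. These were the lowest Acads values of the study, and it fell by 1.13 ± 0.21 (2.19-fold, adjusted p = 0.0307). Its levels were 5.56 and 5.66, then 4.75 and 5.42 in KPC, 5.74 and 5.66, then 4.95 and 5.45 in C26, and 5.50 and 5.28, then 5.11 and 5.39 in LLC. Cachectic values lay under both controls in KPC and C26 and overlapped them in LLC, and over the mean Acads fell by 0.58 ± 0.11 (adjusted p = 0.0021). Acadvl (very long chains) had levels of 8.12 and 8.34, then 7.35 and 7.45 in KPP, a fall of 0.83 ± 0.18 (1.78-fold, adjusted p = 0.0462). In KPC they were 7.94 and 8.0, then 7.43 and 7.80, in C26 8.13 and 8.09, then 7.48 and 7.91, and in LLC 7.97 and 7.91, then 8.17 and 7.74. Here too the cachectic libraries were below both controls in 3 models and on either side of them in LLC, and Acadvl fell by 0.40 ± 0.09 over the mean (adjusted p = 0.00553). Of its exon bases, 42.9% overlap Dvl2 on the opposite strand, and Dvl2 was far lower, at 1.93 to 2.93.

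Acad12 (chr5:121596775-121618938, minus strand), an acyl-CoA dehydrogenase family member next to Acad10, was the member whose change differed between models. Its level was 4.05 and 4.05 in C26 controls and 5.16 and 5.35 in C26 cachectic muscle, the highest of the study. In KPP the order was turned, with 4.33 and 4.38 in controls and 3.98 and 3.78 in cachectic muscle. The levels were 4.07 and 4.23, then 4.18 and 4.24 in KPC, where they overlapped, and 4.02 and 3.93, then 4.45 and 4.32 in LLC, where they did not. Acad12 rose by 1.21 ± 0.12 in C26 (2.31-fold, adjusted p = 0.000836), a call that held with any 1 library left out. The changes in KPP (-0.48 ± 0.12), KPC (0.06 ± 0.12) and LLC (0.41 ± 0.12) did not pass (adjusted p = 0.0628, 0.899 and 0.0605). The change in KPP was lower than that in C26 by 1.68 ± 0.17 (adjusted p = 0.00475), a difference that 0.299% of all genes passed. The change in KPC differed from that in C26 by -1.15 ± 0.17 (adjusted p = 0.0465), beside 0.0582% of all genes. The F test over the 4 models gave an adjusted p of 0.0207, and over their mean Acad12 rose by 0.30 ± 0.06 (adjusted p = 0.00346). This F call was lost when some single libraries were left out and with a replicate block, as given below. The differences between pairs of models were not rerun under the alternatives. No other member passed any of the 6 differences between pairs of models by limma. Of all genes, 0.025% passed for KPP against KPC, 0.0333% for KPP against LLC, 0% for KPC against LLC and 0.116% for C26 against LLC. At an unadjusted p under 0.05 those 4 differences held 9, 14, 3 and 1 members, and 6.18%, 10.2%, 8.35% and 13.7% of all genes.

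Acad10 shares 95.3% of 1614 aligned transcript bases with Acad12, so reads from that stretch could not always be separated. Acad10 rose over the mean by 0.45 ± 0.13 (adjusted p = 0.0176) and passed in 0 of the 4 models. Its levels were 2.61 and 2.54, then 2.61 and 2.98 in KPP, 2.12 and 2.61, then 2.82 and 2.31 in KPC, 3.18 and 2.82, then 3.36 and 3.95 in C26, and 2.41 and 2.24, then 3.31 and 2.79 in LLC. Only the KPC groups overlapped. Acadm (medium chains), Acadl (long chains) and Acad11 passed in none of the models or the mean, with changes from -0.74 (Acad11 in KPP, adjusted p = 0.089) to 0.48 (Acadl in C26, adjusted p = 0.0715).

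The later steps of the cycle are carried by the trifunctional protein (Hadha and Hadhb), by Echs1, the short-chain enoyl-CoA hydratase, by Hadh, the short-chain hydroxyacyl-CoA dehydrogenase, and by the thiolase Acaa2. Hadh was lower in every model: its levels were 6.37 and 6.53, then 5.80 and 5.77 in KPP, 6.46 and 6.46, then 5.80 and 6.39 in KPC, 6.76 and 6.80, then 5.99 and 6.37 in C26, and 6.45 and 6.38, then 5.97 and 5.98 in LLC. All 8 cachectic libraries lay below both controls of their model. Hadh fell by 0.61 ± 0.17 in C26 (1.52-fold, adjusted p = 0.0263) and by 0.52 ± 0.09 over the mean (adjusted p = 0.00139). The C26 call was lost without C26 control 1 (adjusted p = 0.113), C26 control 2 (0.118) or C26 cachectic 1 (0.16). Acaa2 behaved alike in direction and fell over the mean by 0.48 ± 0.12 (adjusted p = 0.00839). Its levels were 6.37 and 6.53, then 5.76 and 5.80 in KPP, 6.37 and 6.50, then 5.79 and 6.35 in KPC, 6.50 and 6.51, then 5.75 and 6.23 in C26, and 6.15 and 6.12, then 5.40 and 6.17 in LLC, where 1 cachectic library lay above the controls.

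Echs1 went the other way. It stood at 5.62 and 5.48 in LLC controls and at 6.75 and 5.97 in LLC cachectic muscle, apart from each other, and rose by 0.81 ± 0.22 (1.76-fold, adjusted p = 0.0439). Its levels were 5.69 and 5.90, then 6.03 and 5.91 in KPP, 5.75 and 5.89, then 5.49 and 5.72 in KPC, and 5.83 and 5.63, then 6.12 and 6.47 in C26. The cachectic values were above controls in KPP, C26 and LLC and below them in KPC, and over the mean Echs1 rose by 0.33 ± 0.11 (adjusted p = 0.0278). The LLC call was lost in 11 of the 16 fits that leave out 1 library, and under 6 of the 11 other alternatives, which include quantile normalization, no trend, only the 4 LLC libraries, the pair left out, and totals without mitochondrially encoded reads. Without LLC cachectic 1 the change was 0.42 (adjusted p = 0.256). With 1 library left out, the other losses were without LLC control 1 (0.158), LLC control 2 (0.234) and each of the KPP libraries, KPC controls and C26 controls (at most 0.0661). Hadha and Hadhb, which share a start region as shown above, passed in none of the models. In KPP, Hadha was at 8.34 and 8.46, then 7.74 and 7.82 (-0.62 ± 0.16, adjusted p = 0.0579), and Hadhb at 7.86 and 8.19, then 7.39 and 7.51 (-0.57 ± 0.19, adjusted p = 0.115). Their cachectic values lay under both controls there, and in the other models the changes ran from -0.17 to 0.24.

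Double bonds in fatty acids are handled by the isomerases Eci1 and Eci2 and by the reductase Decr1. Decr1 was at 6.18 and 6.27 in KPP controls and 5.60 and 5.63 in KPP cachectic muscle, well apart, and fell by 0.61 ± 0.13 (1.53-fold, adjusted p = 0.0416). Its levels were 6.29 and 6.32, then 6.19 and 6.27 in KPC, 6.27 and 6.17, then 5.82 and 6.13 in C26, and 6.05 and 6.00, then 5.86 and 6.05 in LLC. The LLC groups overlapped, and over the mean Decr1 fell by 0.25 ± 0.06 (adjusted p = 0.00854). Eci1 fell over the mean by 0.23 ± 0.06 (adjusted p = 0.015), with levels of 6.25 and 6.30, then 6.01 and 5.80 in KPP, 6.01 and 6.01, then 5.93 and 6.09 in KPC, 5.83 and 5.87, then 5.56 and 5.79 in C26, and 6.01 and 6.01, then 5.51 and 5.76 in LLC. Eci2, which is found in mitochondria and peroxisomes, rose over the mean by 0.49 ± 0.14 (adjusted p = 0.0173). Its levels were 5.20 and 5.21, then 5.31 and 5.28 in KPP, 5.26 and 5.21, then 5.94 and 5.05 in KPC, 5.42 and 5.56, then 6.20 and 6.36 in C26, and 5.13 and 5.16, then 6.45 and 5.48 in LLC. Each of the 2 genes had overlapping groups in KPC and separate groups in the other models, in opposite directions.

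Electrons from the acyl-CoA dehydrogenases pass through the flavoprotein made of Etfa and Etfb to its ubiquinone oxidoreductase, Etfdh. Etfdh was at 7.01 and 7.26 in KPP controls and 6.45 and 6.46 in KPP cachectic muscle, where the groups were apart, and fell by 0.68 ± 0.15 (1.61-fold, adjusted p = 0.0447). Its levels were 6.87 and 6.90, then 6.81 and 6.88 in KPC, 6.92 and 7.02, then 6.75 and 7.14 in C26, and 6.90 and 6.94, then 7.03 and 6.76 in LLC, all overlapping. The changes there were -0.04, -0.02 and -0.03. Etfa passed nowhere. Etfb, the member with the lowest change in KPC, was at 2.67 and 2.91 in KPC controls and 1.34 and 2.10 in KPC cachectic muscle. The KPC groups did not overlap, while in KPP the levels were 2.16 and 2.52, then 2.02 and 1.91, in C26 2.28 and 2.14, then 1.83 and 2.62, and in LLC 2.38 and 1.5, then 2.10 and 2.19. Cachectic values were lower in KPP and overlapped the controls in C26 and LLC. In the annotation 58.2% of its exon bases also belong to other genes on the same strand, and its counts were 95 to 301 reads per library.

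The thioesterases split acyl-CoA back to free fatty acid and coenzyme A, Acot1 in the cytosol and Acot2 in mitochondria. Acot1 (chr12:84009490-84018371, plus strand) had levels of -0.57 and -0.63 in KPP controls and 0.37 and 0.33 in KPP cachectic muscle, and -1.60 and -0.71, then 1.47 and 0.34 in KPC. In C26 they were -0.22 and 0.35, then 1.74 and 4.26, and in LLC -0.05 and -0.05, then 2.65 and 1.09. Cachectic libraries were above both controls in each of the 4 models, and C26 cachectic 2 was by far the highest. Acot1 rose by 2.94 ± 0.70 in C26 (7.65-fold, adjusted p = 0.014) and by 1.96 ± 0.35 over the mean (adjusted p = 0.00185). Its changes of 0.95 in KPP, 2.06 in KPC and 1.91 in LLC did not pass (adjusted p = 0.469, 0.547 and 0.1). The counts behind these levels were small, 12 to 42 reads in control libraries and 37 to 572 in cachectic ones, so the added 0.5 read pulls the folds toward 1. The C26 call was lost without C26 control 1 (adjusted p = 0.0973), C26 control 2 (0.0585) or C26 cachectic 2 (0.106), and without the last the change was 1.68.

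Acot2 (chr12:83987861-83993873, plus strand) lies upstream of Acot1, with 15616 bases between the annotated genes, and its transcript matches that of Acot1 at 95.1% over 1274 bases, so reads may not have been fully separated. Its level was 3.05 and 3.42 in C26 controls and 4.29 and 6.22 in C26 cachectic muscle, where it rose by 2.02 ± 0.52 (4.05-fold, adjusted p = 0.0185). Again C26 cachectic 2 was the highest library, and without it the change was 1.06 (adjusted p = 0.138). The call was also lost without C26 control 1 (0.112) or C26 control 2 (0.0701). The levels were 3.33 and 3.27, then 3.38 and 3.18 in KPP, 3.27 and 3.12, then 4.20 and 3.24 in KPC, and 3.11 and 3.51, then 5.06 and 3.82 in LLC. The groups overlapped in KPP and KPC and were apart in LLC, and over the mean Acot2 rose by 0.91 ± 0.26 (adjusted p = 0.0159).

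Acot13, a small mitochondrial thioesterase, fell in C26 and LLC. It stood at 5.41 and 5.41 in LLC controls and 4.46 and 4.83 in LLC cachectic muscle, and fell by 0.77 ± 0.15 (1.70-fold, adjusted p = 0.0183). In C26 it was at 5.40 and 5.44, then 5.02 and 4.91, and fell by 0.46 ± 0.15 (1.37-fold, adjusted p = 0.0422). In KPP it was at 5.42 and 5.52, then 5.0 and 4.94 (-0.50 ± 0.15, adjusted p = 0.0935), and in KPC at 5.24 and 5.40, then 4.96 and 5.35. Of the 8 cachectic libraries, 7 lay below both of their controls, KPC cachectic 2 being the exception, and over the mean Acot13 fell by 0.47 ± 0.08 (adjusted p = 0.00113). The LLC call was lost without LLC control 1 (adjusted p = 0.103), LLC control 2 (0.175) or LLC cachectic 1 (0.107). The C26 call was lost in 12 of the 16 fits that leave out 1 library: without any C26 library (at most 0.167), any KPP library, or a control of KPC or LLC (at most 0.0603). Ucp3, the uncoupling protein of muscle mitochondria, differed widely between replicates: 7.13 and 6.74, then 6.94 and 4.15 in KPP, and 6.00 and 6.76, then 5.83 and 7.73 in C26. KPP cachectic 2 was the lowest library, and the KPP change of -1.39 ± 0.73 (adjusted p = 0.301) was 0.00 without it. Ucp3 passed in none of the models or the mean.

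Of the nuclear receptors, Ppard was at 3.16 and 3.34 in C26 controls and 3.79 and 4.04 in C26 cachectic muscle, and rose by 0.66 ± 0.20 (1.58-fold, adjusted p = 0.0303). The call was lost without any 1 of the C26 libraries: adjusted p = 0.163 and 0.089 without control 1 or 2, and 0.0599 and 0.156 without cachectic 1 or 2. Its levels were 2.98 and 3.13, then 3.01 and 3.12 in KPP, 2.78 and 2.75, then 3.18 and 2.69 in KPC, and 3.18 and 3.30, then 3.89 and 3.33 in LLC. KPP and KPC groups overlapped, and over the mean Ppard rose by 0.30 ± 0.10 (adjusted p = 0.0292). Ppara had levels of 4.17 and 4.10, then 4.31 and 2.76 in KPP, 3.20 and 3.39, then 2.06 and 3.61 in KPC, 3.73 and 3.65, then 2.78 and 3.38 in C26, and 3.39 and 3.52, then 2.46 and 2.57 in LLC. In KPP and KPC 1 cachectic library was above the controls and the other well below them, and in C26 and LLC both were below. Ppara fell over the mean by 0.65 ± 0.23 (adjusted p = 0.042), a call lost in 12 of the 16 fits that leave out 1 library, where the adjusted p was at most 0.0923. Ppard lost its call over the mean in 9 of the 16 (at most 0.0696) and Echs1 in 6 (at most 0.0677).

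Per length of exon the members spanned a wide range of levels in control muscle. Fabp3 was highest, at a median of 259 RPM per kb (197 to 325 over the 8 control libraries), followed by Acadvl at 98.5 (89.4 to 121), Cd36 at 72.3 (60.3 to 83.4), Acadl at 72.2 (64.8 to 86.0) and Crat at 70.9 (66.1 to 85.6). Fabp3 was apart from Acadvl, while Cd36, Acadl and Crat overlapped one another. At the low end were Ppard at 1.18 (0.895 to 1.35), Acad10 at 0.979 (0.715 to 1.49), Cpt1b at 0.572 (0.486 to 0.788) and Acot1 at 0.192 (0.0811 to 0.322). Between highest and lowest the medians differed 1348-fold, and of the 33 neighbouring pairs in the order, 27 had overlapping control ranges. The exon overlaps of Cpt1b and Etfb described above bear on their places in this order. The length used was the union of all annotated exons of a gene, and the order depends on it. For Hadhb this union was 6595 bases, where its longest coding transcript has 2048. For Fabp3 both lengths were 823. Across the 4 control groups, of which KPP and LLC share a strain, the F test called 0 members and 4% of all genes. At an unadjusted p under 0.05 there were 3 members and 17.7% of all genes, and the smallest adjusted p was 0.221 for Lpl.

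**Figure D4:**
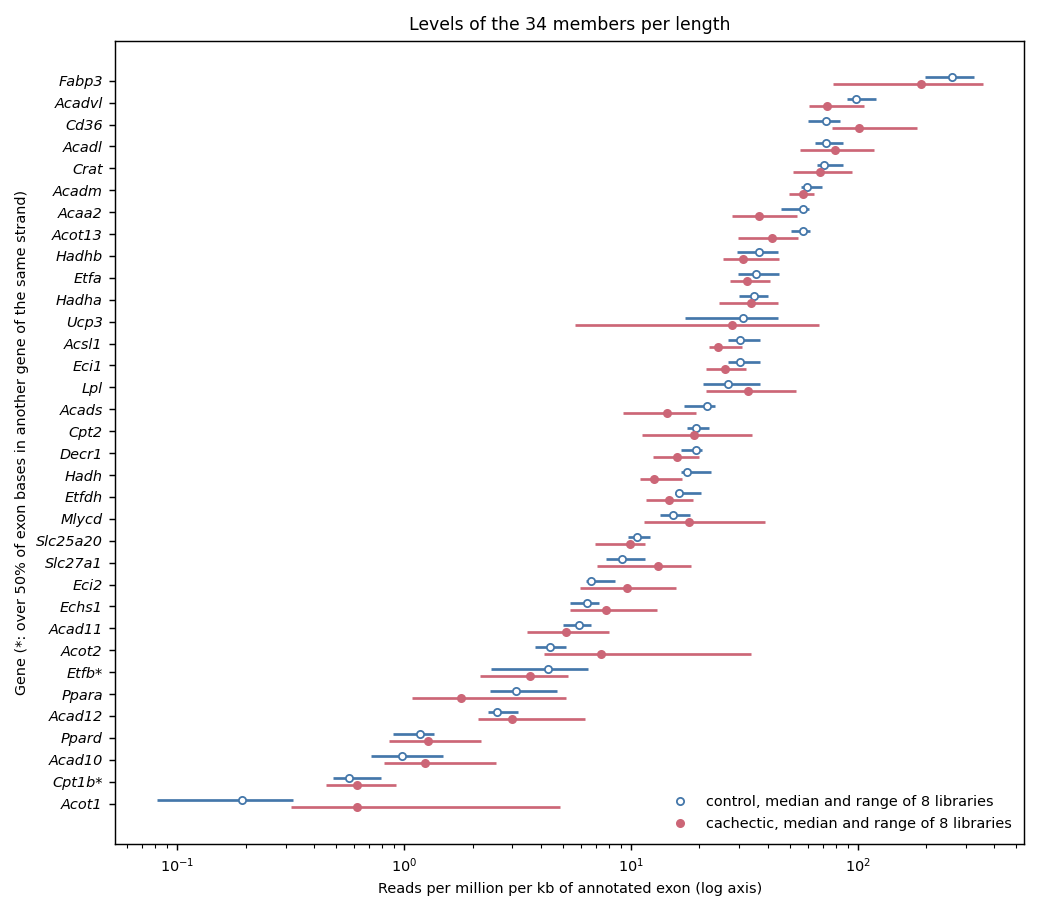
Median and full range of each member's level per exon length, in RPM per kb on a log axis, over the 8 control and the 8 cachectic libraries, with members ordered by the control median. Asterisks mark Cpt1b and Etfb, for which over 50% of the exon bases belong to another gene of the same strand, and Acot1 has the lowest control median, 0.192.

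By their SD, replicates of the members were closer in control than in cachectic muscle. Over the 34 members, the SD of the difference between the 2 replicates was 0.157 to 0.212 in the control groups and 0.509 to 0.567 in the cachectic groups. In KPP cachectic muscle, Ucp3 (6.94 and 4.15) and Ppara (4.31 and 2.76) stood furthest apart. Lpl came next, at 8.38 and 7.81, and Etfdh, at 6.45 and 6.46, was among the close ones.

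Other genes of fatty acid handling, from lists of related function, gave the surrounding picture. Of 18 measured genes of activation, carnitine supply and transport, 5 rose in C26 (27.8%, near the 23.2% of all genes) and 0 passed in KPP, KPC or LLC. The unadjusted p was under 0.05 for 3 in each of the latter, beside 21.1%, 8.61% and 29.3% of all genes. Among those that rose in C26 were Slc27a3, an acyl-CoA synthetase of the transport protein family (1.70 ± 0.29, adjusted p = 0.00422), Acacb, which makes the malonyl-CoA that Mlycd removes (1.08 ± 0.27, adjusted p = 0.0161), and Fabp4, the adipocyte binding protein that endothelium also makes (0.63 ± 0.19, adjusted p = 0.033). Of 23 other mitochondrial acyl-CoA enzymes, 1 rose in KPP (4.35%), 5 in C26 (21.7%) and 2 in LLC (8.70%), where 0.707%, 23.2% and 3.42% of all genes rose, and 0 fell in any of these. Acadsb, the dehydrogenase of short branched chains, rose in C26 by 0.82 and in LLC by 0.81 (adjusted p = 0.00586 and 0.0165), and the thioesterase Acot9 rose in KPP by 0.63 ± 0.14 (adjusted p = 0.047). Over the mean of the models 5 of the 23 rose (21.7%) and 7 fell (30.4%), where 27.3% and 13.8% of all genes did so.

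Of 17 peroxisomal genes, 1 fell in KPP, 2 rose and 2 fell in C26, 1 fell in LLC and 0 passed in KPC. At an unadjusted p under 0.05 there were 0 in KPC, beside 8.61% of all genes. The shares fallen were 5.88% in KPP, 11.8% in C26 and 5.88% in LLC, beside 1.07%, 5.12% and 3.66% of all genes, and 11.8% rose in C26, beside 23.2%. Phyh, which starts the oxidation of phytanic acid, fell in KPP by 0.90 ± 0.18 (adjusted p = 0.0379). Nudt7, which cleaves coenzyme A, fell in LLC by 0.88 ± 0.22 (adjusted p = 0.0365). Of 22 PPAR partners and targets, 6 rose (27.3%) and 2 fell (9.09%) in C26, where 23.2% and 5.12% of all genes did so. In LLC 1 rose (4.55%) and 3 fell (13.6%), where 3.42% and 3.66% of all genes did so. Those that changed included the coactivator Ppargc1b, which fell in LLC by 1.06 ± 0.20 (adjusted p = 0.0162), the receptor Esrrg, which fell in C26 by 0.95 ± 0.20 (adjusted p = 0.00957), and the coactivator and phosphatidate phosphatase Lpin1, which rose in C26 by 0.95 ± 0.21 (adjusted p = 0.00995). In KPP and KPC 0 of the 22 passed, with 5 and 1 at an unadjusted p under 0.05, beside 21.1% and 8.61% of all genes.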

How the data were processed

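Total RNA from snap-frozen tibialis anterior of 16 mouse samples was purified with Trizol, depleted of ribosomal RNA and sequenced, per the labels' protocols. The submitters' processing notes name GRCm38, featureCounts 1.4.5 and limma. The name the authors gave the deposited table includes TopHat, an aligner, without a version. For counting annotation, strand handling and low-value filter, the sources used here name nothing. The authors deposited log2 values, 1 column per library. These are voom values, the log2 of reads per 1000000 after 0.5 is added to a count and 1 to its library total: whole reads were recovered for 100% of values (tolerance 1e-04), with no other scaling between libraries. A gene's value is therefore relative to all listed reads.

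Columns were matched to samples through the sample descriptions. The 34 members and all lists were chosen with earlier results of these data known. All members are accounted for: those called in a model, for the mean or by the F test, and those with the lowest or highest change in a model, have their values in every library. From each list at most 4 genes with the smallest p are named. A limma 3.58.1 fit (R 4.3.3) of 8 group means on 12021 genes, with a trend on expression, gave two-sided tests adjusted by Benjamini-Hochberg at 0.05. A filter (log2 value of at least 0 in 2 libraries) removed no gene. Alternatives were quantile normalization, median centring, a mean log2 value of at least 2, no trend, voom weights, robust variances, a replicate block, adjusted p under 0.10, a fit on 1 model alone, each library left out and, chosen after the data were seen, leaving out a pair of libraries and leaving mitochondrially encoded reads out of the totals. The code was tested on simulated data. Exon overlaps used GENCODE annotation of GRCm38, transcript similarity used blastn 2.17.0 (at least 90% identity over 200 bases), and promoter windows came from RefSeq (GRCm38.p6). The sequence of Acaa2 is not reported here.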

Additional observations from a re-analysis of the deposited data

Results flagged for a closer look

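Acad12 was the member whose response differed between models by a test of the difference itself. The change in KPP minus that in C26 was -1.68 (adjusted p = 0.00475), the change in KPC minus that in C26 was -1.15 (adjusted p = 0.0465), and the F test over the 4 models gave an adjusted p of 0.0207, all from limma with Benjamini-Hochberg adjustment. Both C26 cachectic libraries were above both C26 controls, and both KPP cachectic libraries were below both KPP controls. The F test no longer passed without KPP control 1 (adjusted p = 0.0631), KPP control 2 (0.0512), KPC control 1 (0.0507), C26 control 1 (0.121), C26 control 2 (0.113), LLC control 1 (0.0752) or LLC control 2 (0.0786). Acad10, with a transcript 95.3% identical over 1614 bases, had changes of 0.22 in KPP, 0.20 in KPC and 0.66 in C26, and its share in the reads counted to Acad12 was not tested. With 2 libraries per group, no group was large enough to look for a sample far from the others.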

How the results depend on the processing

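As reported, the members called numbered 6 in KPP, 0 in KPC, 8 in C26, 3 in LLC, 20 over the mean, 1 by the F test between models and 0 among controls. For the settings below, and for the other settings given with the models and their mean above, the shares of all genes called are not given. Shifts in these counts are therefore not read as a result about the members. The counts moved by more than 1.5 times as follows, and the causes were not tested. In KPP they were 2 without the trend, 13 at an adjusted p under 0.10, 14 with only the model's 4 libraries, 18 without KPC cachectic 2 and LLC cachectic 1, and 11 with totals that leave out mitochondrially encoded reads. In C26 they were 17 at 0.10, 13 with 4 libraries and 17 without the pair. In LLC they were 6 at 0.10, 0 with 4 libraries and 1 without the pair. Without the pair, the count was also 10 in KPC, 9 by the F test and 1 among controls (Crat). With any 1 library left out the ranges were 0 to 13 in KPP, 0 to 3 in KPC, 2 to 13 in C26, 0 to 11 in LLC, 16 to 22 over the mean, 0 to 8 by the F test and 0 to 0 among controls. No called member reversed under any alternative run. Under the 11 alternatives other than leaving out 1 library, Fabp3 in KPP and Cd36, Acad12, Hadh and Acot2 in C26 kept their calls, as did Acot1 in C26 under the 10 that gave it a value.

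The replicate numbers in the titles did not pair the samples: deviations of same-numbered libraries correlated at 0.0894 in KPP, -0.00299 in KPC, -0.0373 in C26 and 0.0207 in LLC. With a replicate block within each model the count was 1 in KPP (Fabp3), 0 in KPC, 7 in C26, 2 in LLC, 20 over the mean and 0 by the F test.

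Counting depth limits Acot1 more than the other members, at 12 to 42 reads in a control library.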
